A study of Homo sapiens with 6 samples.

Results

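The genes described here are the E2F transcription factor family, E2F1 to E2F8, and 2 pocket protein genes, RB1 and RBL1. They were chosen by symbol: 10 genes of the 24294 loci in the deposited table, each with 1 row and none merged with another symbol. The table holds mRNA levels from MCF12A, a human mammary epithelial cell line that the submitters list under breast cancer and that is generally described as immortalized and not tumorigenic. Cells that stably express miR-424 were compared with cells that carry an empty vector (EV), with 3 libraries in each group, after 48 h of culture. The labels speak of growth in triplicate and do not say whether the libraries came from separate lines or clones, so the p-values cover the spread between these 6 libraries alone, which may be technical. Levels are FPKM, the fragments per kilobase of transcript scaled to the size of the library, which corrects for transcript length, so that levels of different genes can be set side by side.

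E2F proteins bind DNA at the promoters of genes for S phase entry and DNA replication, most of them as dimers with a DP protein. E2F1, E2F2 and E2F3 are known as activators, E2F4 and E2F5 as repressors that work with the pocket proteins p107 and p130, E2F6 as a repressor that joins a polycomb complex, and E2F7 and E2F8 as repressors that bind without a DP partner. The pocket proteins RB (from RB1) and p107 (from RBL1) hold E2Fs inactive until cyclin-dependent kinases of G1 phase phosphorylate them, and several of the family, E2F1, E2F2, E2F7, E2F8 and RBL1 among them, are themselves known E2F targets.

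Of the 10 genes, E2F5 rose in the miR-424 cells, to 1.36 times its EV level, and E2F2 and E2F8 fell, to 0.761 and 0.747 times. The other 7 did not pass the test. A gene was called at an adjusted p under 0.05 (limma on log2(FPKM + 1), Benjamini-Hochberg over the 11574 loci that averaged 1 FPKM or more), and all 10 genes entered the test. The calls were 1 higher and 2 lower of 10, against 1.24% of all tested loci higher, 6.32% lower and 7.56% in either direction. In 1 gene the 3 miR-424 libraries all lay above the EV libraries (E2F5, against 6.59% of tested loci) and in 4 they all lay below (E2F1, E2F2, E2F7 and E2F8, against 26.9%). In the other 5 the groups overlapped.

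The miR-424 construct was read at the locus listed as MGC16121 and MIR424, at 0.989, 1.27 and 1.23 FPKM in the EV libraries and 107, 106 and 224 FPKM in the miR-424 libraries. The library miR-424 replicate 3 stood apart: its median absolute log2 difference from the other miR-424 libraries was 0.142 and 0.152, and those differed from each other by 0.0408. Without it, 37.2% of tested loci were called, 14.9% higher and 22.2% lower, so each gene is given below with and without it. The split of calls also moved with the scaling, from 144 higher and 731 lower as deposited to 344 and 436 with median-of-ratios size factors and 319 and 447 after quantile normalization. Summed levels of basal markers were 149 to 156 FPKM in EV and 132 to 135 FPKM in miR-424 libraries (7 genes, TP63 under 1 FPKM). In that list KRT5 (mean 63.7 and 40.7 FPKM) and ITGB4 (14.9 and 10.4 FPKM) lay lower in every miR-424 library, KRT14 (2.25 and 4.36 FPKM) and EGFR (29.9 and 32.7 FPKM) lay higher in every one, and KRT17 and ITGA6 overlapped. Luminal markers summed to 253 to 263 and 243 to 264 FPKM (7 genes, with KRT19, CDH1 and ESR1 under 1 FPKM). Fibroblast markers summed to 156 to 166 and 164 to 185 FPKM, nearly all from DCN and COL1A1, with the other 4 under 1 FPKM. CD68 gave nearly all of the leukocyte sum (54.3 to 57.3 and 52.7 to 58.5 FPKM), with PTPRC and CD3E under 1 FPKM, and the 3 endothelial markers summed to at most 0.253 FPKM. The part of these markers in the results was not tested, and in bulk RNA fewer cells of a kind and less RNA per cell cannot be told apart.

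**Figure D1:**
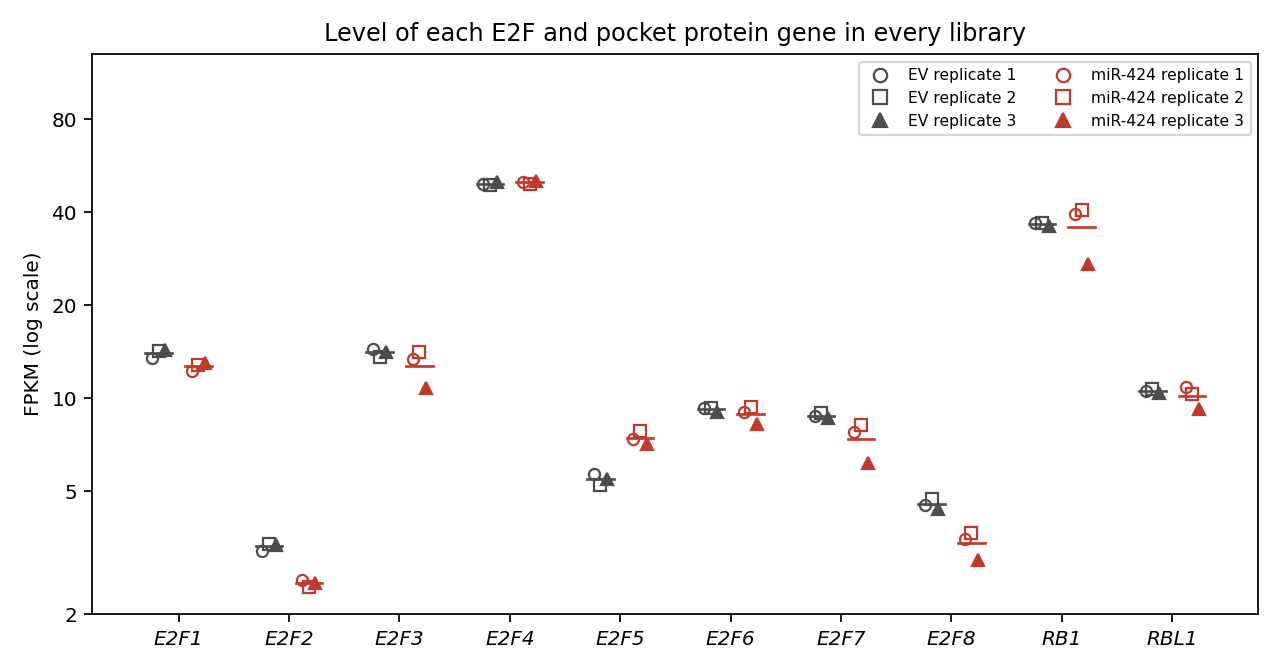
FPKM on a log axis for each of the 10 genes in every library, with EV in grey and miR-424 in red, symbols for replicates 1 to 3 and bars for group means. E2F5 is higher in all 3 miR-424 libraries (7.09 to 7.80 against 5.23 to 5.67 FPKM), E2F2 and E2F8 are lower in all 3, and the filled red triangle of replicate 3 lies lowest of the 6 libraries for 6 genes.

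A microRNA pairs with 3′ UTRs through its seed, bases 2 to 8, so the seed and the matches to it in these 10 genes are shown first. The mature miR-424-5p in RefSeq (GRCh38.p14, chromosome X, 134546680 to 134546701, minus strand) is printed with the seed in capitals, followed by the 3 matches found in the longest GENCODE 29 3′ UTRs, with the match in capitals. A match was counted as TGCTGCT (pairing with bases 2 to 8), GCTGCTA (bases 2 to 7 and an A after them) or both together, TGCTGCTA.
miR-424-5p: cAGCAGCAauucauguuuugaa
E2F3: cctggtaccattgagtTGCTGCTAttaa
E2F7 upstream match: aactctagcagcctaacTGCTGCTtctc
E2F7 downstream match: gtaggtattaattttatTGCTGCTtact
The E2F3 match is the long form, TGCTGCTA, at bases 2491 to 2498 of a 3′ UTR of 3285 bases. The E2F7 matches lie at bases 882 to 888 and 2704 to 2710 of 2891. The other 8 genes held none in 3′ UTRs of 595 to 3450 bases, and that group includes all 3 called genes, E2F2, E2F5 and E2F8. Shorter matches, to bases 2 to 7 alone, were not counted. E2F2, E2F7 and RBL1 held 2 of these each and E2F3 held 1. Over the tested loci with a 3′ UTR, 3108 of 10709 held at least 1 match, with a median 3′ UTR of 1397 bases. The median log2 change was −0.04 for the 7601 loci without a match, −0.06 for the 2118 with 1 and −0.07 for the 990 with 2 or more, and 5.35%, 8.73% and 10.8% of them were called lower. Without miR-424 replicate 3 the medians were smaller, at −0.0135, −0.0209 and −0.0342.

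Since the family is known to act on its own promoters, the RefSeq promoters (GRCh38.p14, from 250 bases before to 50 after the start site) were searched on both strands for 4 forms of the E2F motif, TTTCCCGC, TTTGGCGC, TTTCGCGC and TTTGCCGC. Promoters that begin at the gene's own start were found for 7 of the 10 genes: E2F1, E2F2, E2F3, E2F4, E2F6, E2F7 and RBL1. A motif was present in 4 of the 7, against 5.65% of the promoters of tested loci (465 of 8235) and 3.33% of all promoters (908 of 27305). The 60 bases before the start site of these 4 are printed 5′ to 3′ on the gene's strand, with the motifs, on either strand, in capitals.
E2F1: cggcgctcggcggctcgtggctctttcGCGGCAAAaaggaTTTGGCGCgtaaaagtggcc
E2F2: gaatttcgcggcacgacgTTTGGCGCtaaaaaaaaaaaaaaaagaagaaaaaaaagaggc
E2F3: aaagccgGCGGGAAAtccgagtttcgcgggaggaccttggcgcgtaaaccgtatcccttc
RBL1: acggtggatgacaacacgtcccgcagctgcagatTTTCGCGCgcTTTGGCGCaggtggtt
These stretches lie on the minus strand at 20:33686386-33686445 (E2F1), 1:23531234-23531293 (E2F2) and 20:37095998-37096057 (RBL1), and on the plus strand at 6:20401819-20401878 (E2F3). E2F1 and RBL1 each hold 2 motifs, E2F2 and E2F3 each 1. Of these 4 genes E2F2 was called lower, and E2F1, E2F3 and RBL1 were not called. The other called genes, E2F5 and E2F8, were not among the 7 with a promoter to search, so motifs and calls cannot be compared over the family.

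E2F2, an activator E2F, fell. It lies on chromosome 1, 23832920 to 23857712 (hg19, as for all gene positions here), and measured 3.21, 3.37 and 3.36 FPKM in the EV libraries and 2.58, 2.45 and 2.53 FPKM in the miR-424 libraries. Every miR-424 library lay below every EV library, and replicate 3 lay between the other miR-424 libraries. The means were 3.31 ± 0.0907 and 2.52 ± 0.0658 FPKM (SD, n = 3 each), a log2 change of −0.29 ± 0.04 (SE, 95% interval −0.39 to −0.19, limma adjusted p = 0.0126). Without miR-424 replicate 3 the change was −0.29 (adjusted p = 0.00247). The call was lost when EV replicate 1, 2 or 3 was left out (adjusted p = 0.0629, 0.0880 and 0.0823), while the log2 change stayed between −0.31 and −0.28. Leaving out an EV library lowered the calls over all loci as well, to 31 to 35 higher and 77 to 84 lower.

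E2F1, the activator best known for driving S phase entry and, when in excess, apoptosis, lies on chromosome 20, 32263292 to 32274210. It measured 13.5, 14.2 and 14.3 FPKM in EV and 12.3, 12.8 and 13.0 FPKM in miR-424 libraries. The miR-424 libraries all lay below the EV libraries, by a small margin. The log2 change was −0.13 ± 0.04 (95% interval −0.24 to −0.03) and did not pass the adjusted threshold (limma adjusted p = 0.125). It passed without miR-424 replicate 3 (−0.15, adjusted p = 0.0141). With size factors from the median of ratios the value was −0.07 (adjusted p = 0.528), and with the trend in GC content removed −0.04 (adjusted p = 0.591), or −0.03 without replicate 3 as well (adjusted p = 0.550).

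E2F3, whose gene makes a longer activating and a shorter form that the table does not separate, lies on chromosome 6, 20402137 to 20493945. It measured 14.4, 13.6 and 14.1 FPKM in EV and 13.4, 14.1 and 10.8 FPKM in miR-424 libraries. Replicates 1 and 2 of miR-424 lay within or next to the EV range and replicate 3 lay below all other libraries. The log2 change was −0.14 ± 0.09 (95% interval −0.36 to 0.08, adjusted p = 0.430), and −0.03 without replicate 3 (95% interval −0.12 to 0.05, adjusted p = 0.508). E2F3, which holds the long form of the seed match, was not called in either set of libraries.

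E2F5, a repressor E2F that partners mainly with p130, rose. It measured 5.67, 5.23 and 5.48 FPKM in EV and 7.37, 7.80 and 7.09 FPKM in miR-424 libraries. The groups were separated by a gap wider than the spread within either of them. The means were 5.46 ± 0.219 and 7.42 ± 0.359 FPKM (SD, n = 3 each), with a log2 change of 0.38 ± 0.05 (95% interval 0.26 to 0.50, limma adjusted p = 0.00967). Without miR-424 replicate 3 the change was 0.41 (adjusted p = 0.000722). Leaving out EV replicate 1, 2 or 3 ended the call (adjusted p = 0.0573, 0.0688 and 0.0667), with log2 changes of 0.36 to 0.41. The table gives E2F5 the same outer coordinates as C8orf59 (chromosome 8, 86089619 to 86132643), a gene whose end overlaps that of E2F5 and which measured 50.9, 47.9 and 50.0 FPKM in EV and 51.0, 53.8 and 43.3 FPKM in miR-424 libraries. C8orf59 did not pass the test (log2 change −0.01 ± 0.08, adjusted p = 0.959). The labels do not state whether strand was used in counting, and how reads in the overlap were divided between these genes is uncertain.

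E2F4, the repressor E2F that is abundant in most cells and pairs with all pocket proteins, lies on chromosome 16, 67226068 to 67232821. It measured 49.4, 48.9 and 50.0 FPKM in EV and 50.1, 49.3 and 50.7 FPKM in miR-424 libraries. The groups overlapped, and the 6 libraries were closer together, relative to the level, than for any other of the 10 genes. The log2 change was 0.02 ± 0.03 (95% interval −0.06 to 0.10, adjusted p = 0.832). It was called, higher, in 1 of 15 alternatives, after removal of the trend with GC content and without miR-424 replicate 3 (0.09, adjusted p = 0.0118). E2F5 made up 9.95% ± 0.319 (SD, n = 3) of the summed FPKM of E2F4 and E2F5 in EV and 12.9% ± 0.699 in miR-424 libraries.

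E2F6, a repressor without a pocket protein binding region, lies on chromosome 2, 11584501 to 11606297. It measured 9.31, 9.30 and 8.99 FPKM in EV and 9.02, 9.37 and 8.25 FPKM in miR-424 libraries. The groups overlapped, with replicate 3 of miR-424 lowest. The log2 change was −0.05 ± 0.05 (95% interval −0.18 to 0.08, adjusted p = 0.666) and −0.0005 without replicate 3 (adjusted p = 0.992).

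E2F8 fell, and its closest relative E2F7 measured lower in each miR-424 library without passing the test. Both repress E2F1 and other E2F targets late in S phase. E2F8, on chromosome 11, 19245610 to 19263202, measured 4.50, 4.72 and 4.37 FPKM in EV and 3.50, 3.65 and 3.003 FPKM in miR-424 libraries. All 3 miR-424 libraries lay below the EV libraries, and replicate 3 lay lowest. The means were 4.53 ± 0.177 and 3.38 ± 0.339 FPKM (SD, n = 3 each), a log2 change of −0.34 ± 0.07 (95% interval −0.50 to −0.18, limma adjusted p = 0.0309). Without miR-424 replicate 3 it was −0.27 (adjusted p = 0.00330). The call was lost without EV replicate 1, 2 or 3 (adjusted p = 0.133, 0.144 and 0.114) and without miR-424 replicate 1 (0.0794), with log2 changes of −0.36 to −0.31.

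E2F7, on chromosome 12, 77415026 to 77459360, measured 8.78, 8.93 and 8.61 FPKM in EV and 7.75, 8.17 and 6.18 FPKM in miR-424 libraries. Replicates 1 and 2 of miR-424 lay just under the EV range and replicate 3 well under it. The log2 change was −0.23 ± 0.09 (95% interval −0.45 to −0.01, adjusted p = 0.187). It was −0.13 without replicate 3 and then passed (adjusted p = 0.0256), with a smaller change and a smaller spread. E2F7, which holds 2 seed matches, also passed with the trend in GC content removed (−0.20, adjusted p = 0.0352). E2F8 was 34.0% ± 0.479 (SD, n = 3) of the summed FPKM of E2F7 and E2F8 in EV and 31.6% ± 0.994 in miR-424 libraries.

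RB1, the retinoblastoma tumour suppressor and the pocket protein that binds the activator E2Fs, gave a result that rested on 1 library. It lies on chromosome 13, 48877883 to 49056026, and measured 37.0, 37.0 and 36.1 FPKM in EV and 39.6, 40.5 and 27.1 FPKM in miR-424 libraries. Replicates 1 and 2 of miR-424 lay above all EV libraries and replicate 3 lay below them. Over all 6 libraries the log2 change was −0.06 ± 0.14 (95% interval −0.40 to 0.28, limma adjusted p = 0.860). Without miR-424 replicate 3 it was 0.12 ± 0.02 (95% interval 0.07 to 0.18, adjusted p = 0.00735), higher, where 14.9% of tested loci were also called higher. With the trend in GC content removed as well it was 0.05 and not called (adjusted p = 0.101). LPAR6, a receptor gene inside RB1 with the same outer coordinates in the table, measured 3.55, 3.20 and 3.30 FPKM in EV and 3.30, 3.11 and 1.82 FPKM in miR-424 libraries (adjusted p = 0.415).

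RBL1, which encodes p107, lies on chromosome 20, 35626178 to 35724410. It measured 10.6, 10.7 and 10.4 FPKM in EV and 10.9, 10.3 and 9.26 FPKM in miR-424 libraries. The groups overlapped, with miR-424 replicate 1 highest and replicate 3 lowest of the 6. The log2 change was −0.05 ± 0.06 (95% interval −0.20 to 0.09, adjusted p = 0.686) and 0.01 without replicate 3 (adjusted p = 0.860).

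**Figure D2:**
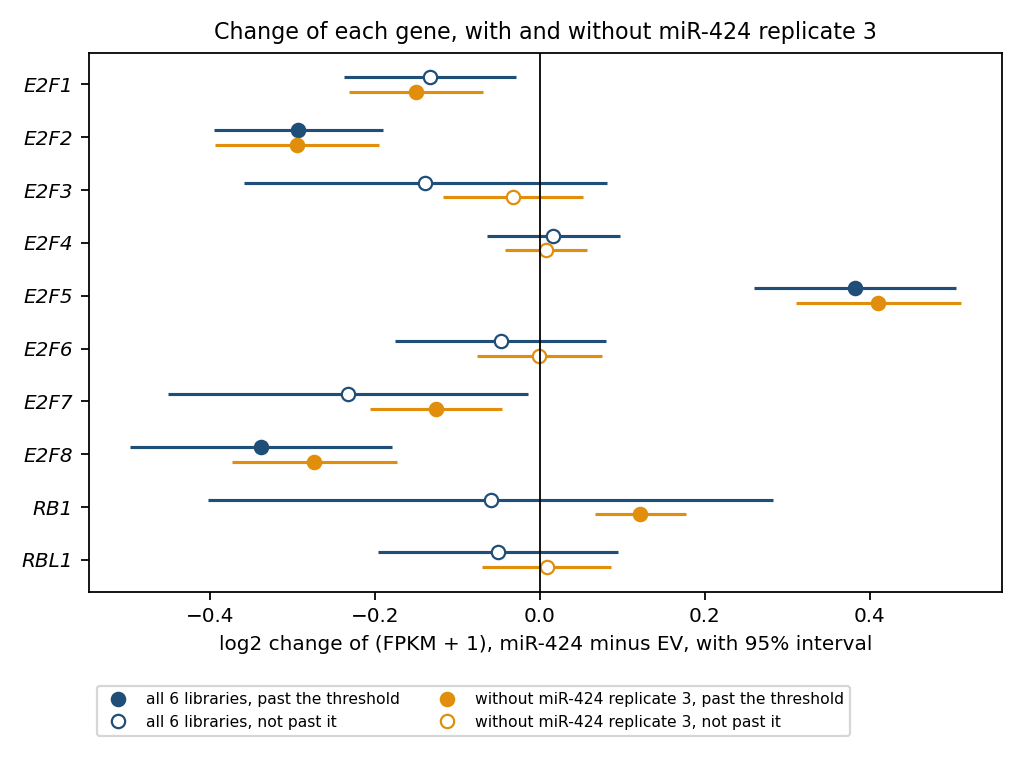
Log2 change of FPKM + 1, miR-424 minus EV, with its 95% interval for each gene, over all 6 libraries (blue) and without miR-424 replicate 3 (orange), where filled points passed an adjusted p of 0.05. E2F2, E2F5 and E2F8 are filled in both sets, E2F1, E2F7 and RB1 only without replicate 3, where RB1 moves from −0.06 to 0.12.

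Leaving out miR-424 replicate 3 raised the called genes from 3 to 6 of 10, with E2F5 and RB1 higher and E2F1, E2F2, E2F7 and E2F8 lower. Over all tested loci the calls rose too, from 7.56% to 37.2% (14.9% higher and 22.2% lower). Replicate 3 was the lowest of all 6 libraries for E2F3, E2F6, E2F7, E2F8, RB1 and RBL1, and lay below both other miR-424 libraries for 7 of the 10 genes, as for 62.8% of tested loci. Its difference from the mean of replicates 1 and 2, on the log2(FPKM + 1) scale, ran from −0.54 for RB1, −0.32 for E2F7 and −0.32 for E2F3 to 0.01 for E2F2, 0.03 for E2F4 and 0.05 for E2F1. GC content of the transcripts was 37.3% for RB1, 43.1% for E2F7 and 44.6% for E2F3, and 57.5%, 58.1% and 62.5% for E2F2, E2F4 and E2F1. The order was not strict: RBL1 (40.7% GC) and E2F5 (42.5% GC) had differences of −0.18 and −0.09, smaller than those of E2F7 and E2F3. Over the 10 genes, Pearson's r of this difference with GC content was 0.815, and over the tested loci 0.550, where all points share the same libraries. With log2 transcript length r was −0.574 over the 10 genes and −0.272 over the tested loci. The median difference was −0.23 for loci under 45% GC, −0.07 from 45% to 55% and 0.04 at 55% or more. With the trend in GC content removed from every library, E2F2, E2F5, E2F7 and E2F8 were called. In that fit 727 loci were called higher and 821 lower of 11407, more than the 144 and 731 of 11574 in the main fit.

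**Figure D3:**
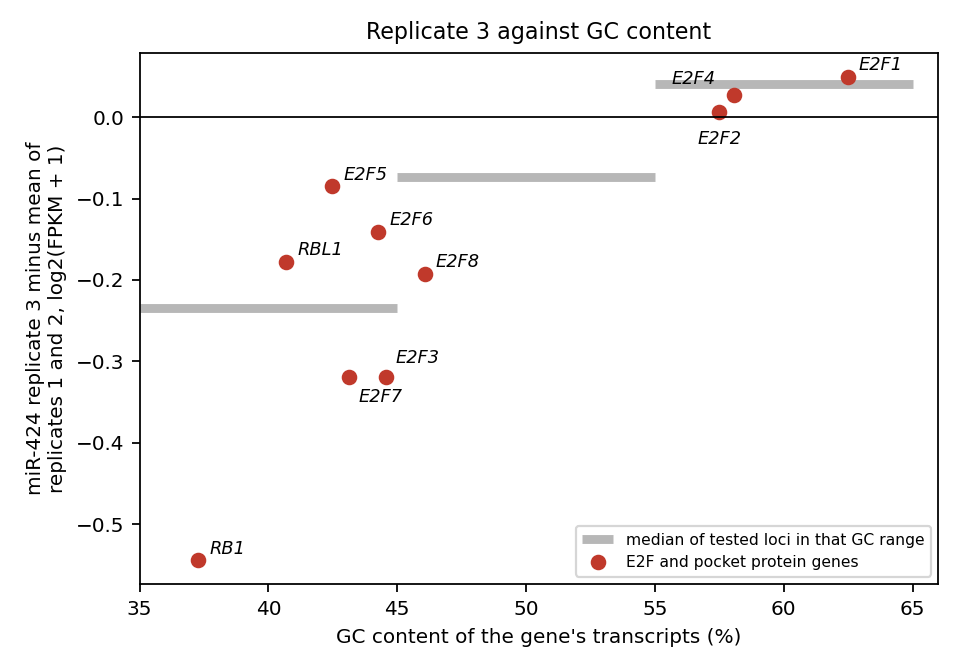
Difference of miR-424 replicate 3 from the mean of miR-424 replicates 1 and 2, on the log2(FPKM + 1) scale, against the GC content of each gene's transcripts in percent, with grey bars for the median of the tested loci in 3 GC ranges. RB1, at 37.3% GC, lies lowest at −0.54, and E2F1, at 62.5% GC, lies highest at 0.05.

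By level, E2F4 led in EV cells (49.4 ± 0.547 FPKM), followed by RB1 (36.7 ± 0.532), E2F3 (14.1 ± 0.422), E2F1 (14.0 ± 0.419), RBL1 (10.5 ± 0.154), E2F6 (9.20 ± 0.183), E2F7 (8.77 ± 0.159), E2F5, E2F8 and E2F2 (SD, n = 3). E2F3 and E2F1 overlapped in their ranges, and every other neighbouring pair was separate. In miR-424 cells E2F5 (7.42 ± 0.359) stood next to E2F7 (7.37 ± 1.05) with overlapping ranges. RBL1 overlapped with E2F6 as well, and E2F3 again with E2F1. The activators E2F1 to E2F3 summed to 31.2, 31.2 and 31.8 FPKM in EV and 28.2, 29.3 and 26.3 FPKM in miR-424 libraries. E2F4 and E2F5 summed to 55.1, 54.1 and 55.5 against 57.5, 57.1 and 57.7 FPKM. Neither sum overlapped between the groups. Of the activators E2F2 alone was called, and in the sum of E2F4 and E2F5 the E2F4 levels overlapped, so these sums, which were not tested, do not speak for every gene in them. The activators were 28.8% ± 0.227 (SD, n = 3) of the summed FPKM of all 8 E2F genes in EV and 26.6% ± 0.661 in miR-424 libraries. The summed FPKM of RB1 and RBL1 overlapped, at 47.6, 47.7 and 46.5 against 50.5, 50.8 and 36.4.

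Around the family, the largest share of calls was among the G1 cyclins, their kinases and inhibitors, the genes that set the phosphorylation of the pocket proteins. Of 15 genes 12 were tested, 7 fell and none rose (6.32% of all tested loci were called lower), and all 12 had log2 changes below 0 (median −0.30, against −0.05 over all tested loci and −0.10 over the 10 family genes). CCNE1, the cyclin of CDK2, fell from 10.5 ± 0.231 to 7.53 ± 0.204 FPKM (log2 change −0.43, adjusted p = 0.00399). CCND1, a D-type cyclin, fell from 82.3 ± 1.502 to 64.6 ± 1.28 FPKM (−0.34, adjusted p = 0.00467). CDK4, its kinase, fell from 91.2 ± 0.942 to 73.3 ± 1.57 FPKM (−0.31, adjusted p = 0.00601), and CCND3 from 82.9 ± 2.39 to 66.7 ± 1.19 FPKM (−0.31, adjusted p = 0.00780). The other 3 that fell, CDKN1A, CDKN1C and CDKN2C, encode inhibitors of these kinases. Leaving out 1 library left 1 to 11 genes of this list called.

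The partner list holds the DP genes, RBL2, the MuvB subunits that form the DREAM complex with E2F4 or E2F5 and p130, and MYBL2 and FOXM1, which join MuvB later in the cycle. Of its 11 genes 10 were tested, with a median log2 change of −0.07, and of 0.02 without miR-424 replicate 3. None rose and 1 fell (10% called, against 7.56% of all tested loci). That gene was FOXM1, an activator of G2/M genes, which fell from 45.9 ± 0.788 to 39.3 ± 1.01 FPKM (log2 change −0.22 ± 0.04, adjusted p = 0.0211). It was not called with median-of-ratios scaling, with the replicate number as a block, or with any 1 library other than miR-424 replicate 3 left out, and the list then had no call (limma, 1 to 2 genes of the list at an unadjusted p under 0.05). The DP partner TFDP1 measured 150.0 ± 3.43 and 144.7 ± 6.37 FPKM (adjusted p = 0.544). RBL2, which encodes p130 and is not among the 10 genes, measured 22.2 ± 0.748 and 22.0 ± 3.39 FPKM (adjusted p = 0.941), and like RB1 it was called higher without miR-424 replicate 3 (log2 change 0.11, adjusted p = 0.0339). TFDP1 and RBL2 were named after their values were seen. Of the 11 genes of the E2F6 polycomb complex, all tested, none was called in either direction by limma, with 1 at an unadjusted p under 0.05 (median log2 change 0.03). Its most abundant members were CBX3 (243 ± 5.09 and 230 ± 51.7 FPKM, adjusted p = 0.742) and HDAC1 (61.1 ± 0.957 and 66.1 ± 1.41 FPKM, adjusted p = 0.119). With miR-424 replicate 3 left out, 4 of the 11 were called higher, CBX3, HDAC1, RNF2 and RYBP, in a fit that called 37.2% of all tested loci and 14.9% higher.

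Of the G1/S genes known as E2F targets, 35 of 36 were in the table and tested. They gave 3 lower and none higher (8.57% called, near the 7.56% of all tested loci), with 32 of 35 below 0 and a median log2 change of −0.12. The median over all tested loci was below 0 too, at −0.05 as deposited, and was 0.01 with median-of-ratios scaling. The share of all tested loci below 0 was not counted, so such counts have no baseline, here or in the other lists. CDC25A, the phosphatase that activates CDK2, fell from 9.40 ± 0.205 to 7.33 ± 0.606 FPKM (log2 change −0.32, adjusted p = 0.0279). GINS1 and MCM3, subunits of the replicative helicase, fell by 0.22 and 0.16 on the log2 scale (adjusted p = 0.0345 and 0.0355). Leaving out miR-424 replicate 3 gave 22 calls lower and 1 higher, where 22.2% and 14.9% of all tested loci were called. Leaving out EV replicate 1, 2 or 3 or miR-424 replicate 1 gave none (limma, 11 to 15 at an unadjusted p under 0.05), and leaving out miR-424 replicate 2 gave 1.

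Of the 27 G2/M genes, all tested, 4 fell and none rose (14.8% called, against 7.56% of all tested loci). In 26 the log2 change was below 0, with a median of −0.14, against −0.05 over all tested loci. KIF20A fell from 33.7 ± 0.298 to 29.8 ± 0.0672 FPKM (adjusted p = 0.0297) and KIF23 from 28.1 ± 0.0256 to 24.8 ± 0.668 FPKM (adjusted p = 0.0411), both kinesins of cytokinesis. BIRC5 (survivin) fell by 0.28 and UBE2C, a ubiquitin-conjugating enzyme of mitotic exit, by 0.23 on the log2 scale (adjusted p = 0.0328 and 0.0396). Without miR-424 replicate 3, 16 were called, all lower, where 22.2% of all tested loci were called lower. Leaving out any of the other 5 libraries gave none (limma, 5 to 15 at an unadjusted p under 0.05). With median-of-ratios scaling 1 was called and with quantile normalization 2.

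Of 10 apoptosis genes known as E2F1 targets, 2 fell and none rose (20% called, against 7.56% of all tested loci). The median log2 change was −0.0002. TP73, a relative of p53 that E2F1 activates, fell from 4.17 ± 0.0359 to 2.81 ± 0.130 FPKM (log2 change −0.44, adjusted p = 0.00444). BBC3, which encodes the BH3-only protein PUMA, fell from 4.60 ± 0.189 to 3.77 ± 0.174 FPKM (−0.23, adjusted p = 0.0411). In 5 of the 10 the log2 change was below 0. Without miR-424 replicate 3 the list had 3 genes higher and 2 lower, where 14.9% and 22.2% of all tested loci were called. With any other library left out, 1 gene was called.

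**Figure D4:**
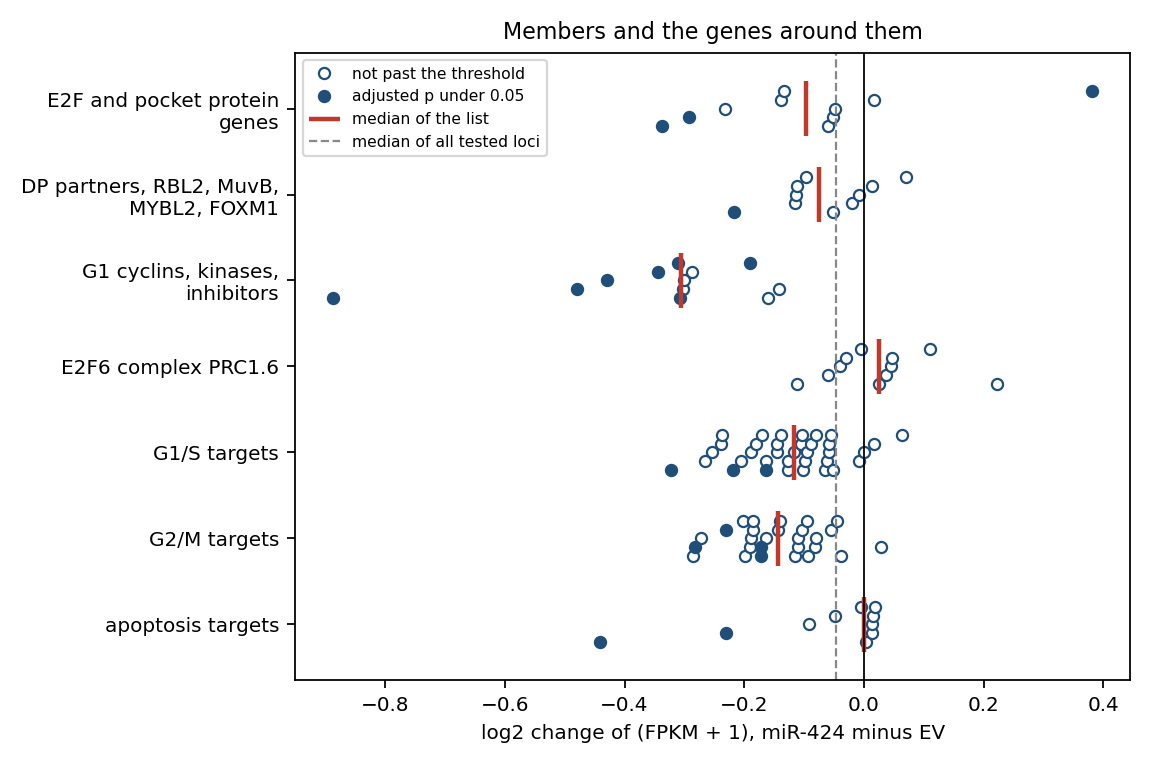
Log2 change of FPKM + 1, miR-424 minus EV, for every tested gene of the family and of 6 surrounding lists, where each point is a gene, filled points have an adjusted p under 0.05, red bars are list medians and the dashed line is the median of all tested loci (−0.05). The G1 regulators lie farthest to the left, with a median of −0.30, and E2F5 is the called point on the right, at 0.38.

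The loci whose log2(FPKM + 1) followed E2F5 most closely over the 6 libraries were DUSP6 (Pearson's r 0.993), a phosphatase of ERK, KCNJ15 (0.992), a potassium channel, and MARCKSL1 (0.991), an actin-binding protein. DUSP6 measured 12.8 ± 0.234 FPKM in the EV libraries and 21.9 ± 1.54 FPKM in those with miR-424 (SD, n = 3). KCNJ15 measured 0.663 ± 0.0485 and 2.25 ± 0.343 FPKM, and MARCKSL1 45.2 ± 0.540 and 55.7 ± 2.11 FPKM. Their direction follows from the choice by likeness to E2F5. Of the 11574 tested loci, 133 had an r over 0.95 with E2F5, where all points share the same 6 libraries in 2 groups.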

How the data were processed

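mRNA libraries (TruSeq RNA v2) from 3 EV and 3 miR-424 samples of MCF12A were sequenced. The deposited table holds FPKM values per locus, made by the authors with TopHat 1.4.1, Cufflinks 1.3.0 and Cuffdiff on hg19/GRCh37, per the submitters' processing notes, and samples were mapped by column name. The members and all gene lists were chosen with earlier results of these data known. The 24294 loci were restricted to the 11574 with a mean of at least 1 FPKM, and log2(FPKM + 1) was tested with limma 3.58.1 in R 4.3.3 (trended prior, Benjamini-Hochberg, threshold 0.05). Fold changes are on that scale, which understates the change of low genes. Ratios and means ± SD are of FPKM. FPKM carries no read counts, the smallest steps between values gave no whole reads (4.29% to 12.7% of low loci on a step), and depth per library is therefore unknown, so no counting error is given. Simulated data were drawn with each locus's own spread within the EV and miR-424 groups, miR-424 replicate 3 included. The test was checked on these data, in which no single library was shifted as that one was. It recovered 41% of 100 loci changed by 0.3 on the log2 scale and 77% of 100 changed by 0.6, with 4 false calls. A gene that did not pass may therefore still have changed by amounts like these, unless its interval leaves them out. Of the family genes not called, E2F3, E2F7 and RB1 had intervals that included a log2 change of −0.3. The intervals of E2F1, E2F4, E2F6 and RBL1 left out a change of 0.3 in either direction. None of these intervals reached 0.6 in either direction. GC content and 3′ UTRs came from GENCODE 29 transcripts (98.6% of tested loci matched), promoters and the microRNA from RefSeq (GRCh38.p14). Coordinates of genes are hg19, with starts counted from 1. Genes named are all 10 members and, of each list, up to 4 called genes with the smallest adjusted p, or the 2 most abundant where none was called, and the 3 loci most correlated with E2F5. Named outside this rule, after values were seen: CDKN1A, CDKN1C, CDKN2C, RNF2, RYBP, TFDP1 and RBL2. Alternatives were another pseudocount (0.1), no filter or a mean of at least 5 FPKM, median-of-ratios and quantile scaling, removal of the GC trend, no trended prior, the replicate number as a block, and each library left out. Removal of the GC trend together with leaving out miR-424 replicate 3 was added after the data were seen.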

Additional observations from a re-analysis of the deposited data

How the results depend on the processing

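E2F5 was higher in all 15 alternatives and passed in 12, E2F2 was lower in all 14 it entered and passed in 10, and E2F8 was lower in all 14 and passed in 9. Beside the EV libraries left out, E2F8 missed with no filter (adjusted p = 0.0566) and without miR-424 replicate 1, and E2F2 with the replicate block. The range of log2 changes was 0.35 to 0.44 for E2F5, −0.38 to −0.21 for E2F2 and −0.41 to −0.27 for E2F8. The value turned positive with median-of-ratios scaling for E2F6 (0.0146), RB1 (0.00737) and RBL1 (0.0118), with quantile normalization for RBL1 (0.00695), and for RB1 with the GC trend removed and miR-424 replicate 3 left out (0.0476, adjusted p = 0.101, no longer called as it was without replicate 3 alone). With 1 library left out at a time, RB1 ran from −0.159 to 0.122 and RBL1 from −0.0992 to 0.00827. The cause was not tested.

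Called genes among the 10 numbered 1 with a mean of at least 5 FPKM, which leaves E2F2 and E2F8 out of the test, and 5 with the GC trend removed and miR-424 replicate 3 left out (E2F4 and E2F5 higher, E2F2, E2F7 and E2F8 lower), where 1792 loci were called higher and 1675 lower of 11407. With 1 library left out they ran from 0 to 6, with 0 of 10 for each EV library (limma, 3 to 4 at an unadjusted p under 0.05). For the surrounding lists, median-of-ratios scaling left 0 of the partners, 1 G2/M and 1 apoptosis gene called, and added 1 call, higher, in the E2F6 complex, which had none. Quantile normalization left 2 G2/M and 1 apoptosis gene. Removing the GC trend gave 2 partners, 2 of the E2F6 complex, 7 G1/S genes and 1 apoptosis gene, and with replicate 3 left out as well 2, 4, 18 and 1, beside 18 G2/M genes. Of 11407 loci, these settings called 727 and 1792 higher and 821 and 1675 lower. For apoptosis genes, no filter left 1 and a mean of at least 5 FPKM left 0 (limma, 0 at an unadjusted p under 0.05). That last filter leaves TP73 and BBC3, at means of 3.49 and 4.19 FPKM over the 6 libraries, out of the test. With 1 library left out, the calls ran from 0 to 3 for the partners, 1 to 11 for G1 regulators, 0 to 4 for the E2F6 complex, 0 to 23 for G1/S, 0 to 16 for G2/M and 1 to 5 for apoptosis genes.

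Same-numbered libraries deviated together only weakly (correlations 0.0509, 0.152 and 0.127), EV replicate 1 correlated best with miR-424 replicate 2 (0.0613), and the numbers were not treated as pairs. With the replicate number as a block, 2 of the 10 were called (E2F5 higher, E2F8 lower, E2F2 at an adjusted p of 0.0572), with 0 partners, 0 G1/S, 0 G2/M and 1 apoptosis gene (limma, 2, 15, 10 and 2 at an unadjusted p under 0.05) and 79 loci higher and 270 lower over the table.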
